A study of Mus musculus with 4 samples.

Results

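Among the myogenic progenitors (MPs) sorted from regenerating mouse muscle, 225 cells carried large amounts of RNA for the contractile apparatus, and they are called late myocytes here. They were chosen by a rule on raw UMI counts (a UMI, or unique molecular identifier, tags each RNA molecule that was caught): at least 5000 UMIs, at least 1000 genes, at most 10% of UMIs from mitochondrial genes, no Cd74 UMI, and a sum over Myh3, Myh8, Tnnc2, Mybph, Acta1 and Mylpf of at least 100 per 10000 UMIs of the cell. This 6-gene sum was the value that selected them, so levels of these genes in late myocytes are a description and not a finding. They were 225 of the 9611 cells that passed the limits on UMIs, genes and mitochondrial RNA, out of 16519 barcodes in the files. Pax7Cre replicates 1 and 2 held 91 and 38 of them, and miR-501KO replicates 1 and 2 held 55 and 41. Just inside the threshold, 22 cells had a sum of 100 to 120 per 10000 UMIs, and just outside it, 21 cells had a sum of 80 to 100. A further 39 barcodes passed the sum but held a Cd74 UMI and were left out.

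The cells came from tibialis anterior muscle of 12-week-old male mice, taken 6 days after the muscle was injured with cardiotoxin, a toxin from snake venom. Of the 4 libraries, 2 were from Pax7Cre controls, labelled WT (Pax7Cre), and 2 from mice labelled miR-501 KO (Pax7CremiR-501fl/Y), called miR-501KO here; both groups carried the Cre driver and both were injured. The Pax7Cre driver was not inducible, and the study places the deletion in embryonic development. All descendants of a recombined cell inherit the loss. A floxed gene is thus lost throughout the myogenic lineage and not only in late myocytes. Each library pooled 3 mice, and cells were sorted for alpha7 integrin without CD45, CD31 or Sca1. The labels place the libraries numbered 1 in one run and those numbered 2 in another, and the study describes its runs as independent experiments. With 2 libraries per genotype, p-values measure the spread between these pools, and an exact permutation test of 2 against 2 cannot give a p under 0.33. Libraries of 3' ends of polyadenylated RNA do not measure the mature miRNA, so these counts do not check the deletion.

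When a satellite cell commits to muscle, the transcription factor myogenin (Myog) is switched on, the cell leaves the cell cycle, and mononucleate myocytes then fuse with each other or with fibres. During this step they begin to make the sarcomere, the repeating unit in which thick filaments of myosin pull on thin filaments of actin, troponin and tropomyosin anchored at the Z-disc. Regenerating muscle first uses embryonic and perinatal isoforms (Myh3, Myh8, Myl4, Actc1, Tnnt2) and replaces them with adult fast isoforms as fibres mature.

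The miRNA deleted in miR-501KO mice and the proximal promoters of 4 of the 6 selecting genes are shown because the first defines the genotypes and the others belong to genes whose sum selected the cells. The mature miRNAs lie on the minus strand of chromosome X, miR-501-3p at chrX:7241270-7241291 and miR-501-5p at chrX:7241307-7241328, and capitals mark the seed, bases 2 to 8. Each promoter runs from 250 bases before to 50 bases after the RefSeq gene start in the direction of the gene. Acta1, the skeletal actin of the thin filament, is at chr8:123894726-123895025 on the minus strand. Mylpf, the fast regulatory myosin light chain, is at chr7:127211358-127211657, Mybph, a myosin-binding protein, at chr1:134193198-134193497, and Myh3, the embryonic myosin heavy chain, at chr11:67078050-67078349, all on the plus strand. Sequences and positions are those of RefSeq on GRCm38.p6, and were not mixed with the GRCm39 annotation of the counts. Capitals in the promoters mark the letters CANNTG (the E-box core bound by Myog and its relatives), TATAAA, the CArG box and the MEF2 site, read on both strands.
mmu-miR-501-3p: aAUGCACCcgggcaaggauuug
mmu-miR-501-5p: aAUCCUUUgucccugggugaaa
Acta1: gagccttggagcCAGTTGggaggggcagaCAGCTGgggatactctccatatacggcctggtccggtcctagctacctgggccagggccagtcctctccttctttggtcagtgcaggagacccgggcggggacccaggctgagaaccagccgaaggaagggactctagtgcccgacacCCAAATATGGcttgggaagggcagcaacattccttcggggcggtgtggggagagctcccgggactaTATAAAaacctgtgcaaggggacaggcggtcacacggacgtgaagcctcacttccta
Mylpf: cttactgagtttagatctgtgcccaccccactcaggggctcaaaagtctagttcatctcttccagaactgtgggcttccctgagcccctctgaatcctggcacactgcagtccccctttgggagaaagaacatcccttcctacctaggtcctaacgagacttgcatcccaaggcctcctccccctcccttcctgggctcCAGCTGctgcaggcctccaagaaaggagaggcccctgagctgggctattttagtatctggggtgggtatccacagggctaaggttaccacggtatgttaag
Mybph: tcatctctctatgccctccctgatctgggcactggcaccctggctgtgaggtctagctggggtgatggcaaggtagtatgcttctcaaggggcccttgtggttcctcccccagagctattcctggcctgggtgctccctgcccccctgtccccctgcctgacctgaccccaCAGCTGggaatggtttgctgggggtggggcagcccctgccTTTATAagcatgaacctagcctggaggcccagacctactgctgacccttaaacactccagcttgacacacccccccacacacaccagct
Myh3: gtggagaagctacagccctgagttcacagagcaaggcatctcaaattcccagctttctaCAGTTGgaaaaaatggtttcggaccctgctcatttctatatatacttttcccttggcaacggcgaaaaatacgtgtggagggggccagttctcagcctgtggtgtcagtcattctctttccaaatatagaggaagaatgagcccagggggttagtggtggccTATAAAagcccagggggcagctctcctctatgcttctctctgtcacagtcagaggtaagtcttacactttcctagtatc

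The E-box CAGCTG, a special case of CANNTG, stood in the promoters of 3 of the 6 selecting genes and of Myl1, against 16.3% of 32841 RefSeq promoters of the same length. It began 221 bases before the start in Acta1, 51 in Mylpf, 79 in Mybph and 224 in Myl1. CANNTG was in all 7, but also in 72.3% of all promoters. TATAAA or its complement was in 5 of the 7 (13.6% of all promoters). The CArG box, the site of serum response factor, was in Acta1 (1.63% of all promoters), and the MEF2 site was in Myh8, where it overlapped a TTTATA match (3.19% of all promoters). These are matches of letters in a short window, and binding was not measured.

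Before the levels are given, the label of these cells was checked against their RNA, and the cells were not of one kind. In 189 of the 225, Myog was at least 1 per 10000 UMIs and the 6-gene sum lay between 100 and 623; these are called Myog-high here. In 28 cells Myog was below 1 per 10000 and the sum was at least 700. The remaining 8 were Myog-low with a sum below 700; 7 of them had a sum under 200, of which 5 held a Pax7 UMI. These kinds were drawn after their values were seen. The 28 Myog-low cells with the highest sums were unevenly spread, with 3, 14, 7 and 4 in Pax7Cre replicates 1 and 2 and miR-501KO replicates 1 and 2. They made up 3.30%, 36.8%, 12.7% and 9.76% of the late myocytes of those libraries and 2.67%, 31.0%, 22.0% and 5.94% of their UMIs. Mitochondrial genes gave a median of 0.0676% of UMIs in the 28 cells and 4.87% in the Myog-high cells, and the median number of genes was 2803 against 6105. The highest mitochondrial share among the 28 cells was 8.99%. The label of late committed myocytes therefore matched the 189 Myog-high cells. The 28 cells and the remaining 8 are named only by their RNA, and they stay in the counts and sums of all 225 cells. Results are given for all 225 cells and, where it matters, for the Myog-high cells alone.

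**Figure D1:**
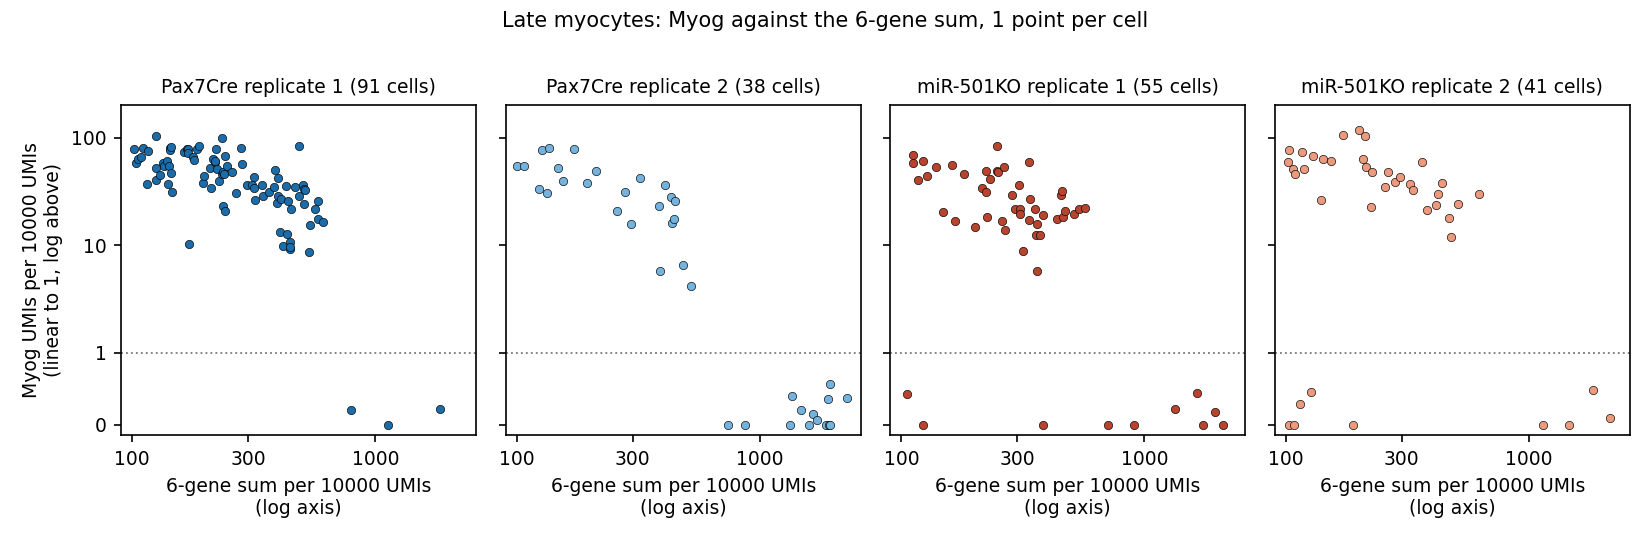
Each point is 1 of the 225 late myocytes, plotted by its sum over the 6 selecting genes (x axis, per 10000 UMIs, log scale) and its Myog level (y axis, UMIs per 10000, linear below 1 and log above), with 1 panel per library. The dotted line is 1 per 10000. The Myog-high cells end at a sum of 623, and a separate group of 28 cells with Myog near 0 and sums from 709 to 2291 holds 14 cells in Pax7Cre replicate 2.

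Late myocytes held more UMIs than other cells, with a median of 55803 UMIs (from 44861 to 65863 by library) against 31185 in early Myog+ cells and 30248 in all cells passing. No doublet caller was run; 53 late myocytes (18, 11, 14 and 10 by library) had more UMIs than the 95th percentile of their library. Summed over each library, late myocytes gave between 2442501 and 5011431 UMIs. In an unsupervised clustering, 204 of the 225 fell in a single cluster that held 270 passing cells. No barcode of a late myocyte was shared between libraries. The 10 macrophage markers summed to between 7.37 and 23.2 CPM (counts scaled to a library sum of 1000000 UMIs) in late myocytes, against at least 34610 in cells gated as macrophages. Fibroblast markers summed to between 57.8 and 81.8 CPM with Pdgfra and Pi16 at 0, and Schwann markers to at most 9.58 CPM with Sox10 and Cdh19 at 0. Endothelial markers summed to 38.4 CPM in miR-501KO replicate 1 and to at most 1.60 CPM elsewhere. Mural markers summed to between 3415 and 6237 CPM, nearly all of it Acta2, the smooth muscle actin that differentiating myoblasts also make, which alone averaged 4658 CPM; Kcnj8 was at 0 and Rgs5 averaged 1.30 CPM.

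Late myocytes were compared with 1125 early Myog+ cells (469, 226, 217 and 213 by library), which held at least 2 Myog UMIs and no Cd74 UMI, had a sum under 100 per 10000 and at most 1 UMI over 5 cell cycle genes. Ratios are log2 of CPM + 1 of the late sum over the early sum of the same library. Folds given for single genes are the late mean CPM + 1 over the early mean CPM + 1. Levels of different genes are scaled molecule counts, which for 3' counts do not scale with transcript length. Since both sets were cut from the same RNA values, the ratios are descriptions with no test. Of 9658 genes with at least 5 CPM in either set, 433 (4.48%) were at least 2-fold higher in late myocytes in 4 of 4 libraries and 718 (7.43%) were at least 2-fold lower. A gene that reached 5 CPM in late myocytes alone had to be higher there, so counts over gene lists describe these cells and support nothing further. The lists also hold the selecting genes, whose higher level in late myocytes was set by the rule. Myh3 and Myh8 are heavy chains, Mylpf is a light chain, Acta1 and Tnnc2 are in the thin filament list and Mybph is in the Z-disc list. The median gene had a log2 ratio of -0.37 (-0.28 for Myog-high cells), so the RNA of most genes took a smaller share of the UMIs in late myocytes. The greater depth of late myocytes moved with these ratios, and its part in them was not tested.

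Genes of the thick filament are given first. Of 8 myosin heavy chains, the 5 that reached 5 CPM were at least 2-fold higher in every library, with a median log2 ratio of 4.66. Myh3 was at 2617 and 1499 CPM in Pax7Cre replicates 1 and 2 and at 2873 and 2025 CPM in miR-501KO replicates 1 and 2, against an early mean of 62.5 CPM. Myh8, the perinatal isoform, was at 316, 697, 487 and 398 CPM in the same order, against 3.42 CPM. Both are selecting genes; among the rest, Myh1, a fast adult isoform, was at 214, 108, 117 and 125 CPM against 5.86 CPM. Myh4, the fastest adult isoform, differed between libraries, at 27.1, 211, 107 and 14.3 CPM. It averaged 89.9 CPM in all late myocytes and 16.3 CPM in Myog-high cells. Myh7, the slow and cardiac isoform, stayed low at 8.16 CPM on average, and Myh2, Myh6 and Myh7b were under 5 CPM in both sets.

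Of the myosin light chains, 4 of the 5 that reached 5 CPM were at least 2-fold higher in every library. Myl4, the embryonic essential light chain, was at 4693, 3640, 4185 and 3387 CPM, close between libraries, against an early mean of 184 CPM. Myl1, the fast essential light chain, was at 5693, 17534, 12376 and 6929 CPM, against 209 CPM. The 2 libraries rich in the 28 Myog-low cells, Pax7Cre replicate 2 and miR-501KO replicate 1, had the high Myl1 values, and in Myog-high cells Myl1 averaged 4927 CPM. Mylpf was at 11576, 28721, 22060 and 14206 CPM with the same order of libraries, against 264 CPM in early cells.

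On the thin filament, 17 of 18 listed genes were at least 2-fold higher in every library, and 16 of 18 in Myog-high cells. Tnnc1, the troponin C of slow and cardiac muscle, was at 1365, 714, 886 and 985 CPM, against an early mean of 10.5 CPM; its median log2 ratio was 6.73 in all late myocytes and 6.82 in Myog-high cells. Tnnc2, the fast troponin C and a selecting gene, was at 2764, 12389, 8843 and 4606 CPM against 41.5 CPM. Fast troponin T (Tnnt3) averaged 6536 CPM and fast troponin I (Tnni2) 3528 CPM, from 140 and 68.9 CPM in early cells. The isoforms of developing muscle were already abundant in early cells: Actc1, the cardiac actin, averaged 1723 CPM there and 5958 CPM in late myocytes, and Tnnt2, the cardiac troponin T, 1312 and 3529 CPM. Tpm1 and Tpm2 were 5.79-fold and 7.56-fold higher, whereas Tpm3, a tropomyosin also made by non-muscle cells, was lower in all 4 libraries (165 CPM early, 68.1 CPM late). In Myog-high cells alone, Tpm1 and Tpm2 averaged 2793 and 4556 CPM, against early means of 1266 and 864 CPM. Tnnt3, Tnni2 and Tnnc2 averaged 2961, 1162 and 2223 CPM in those cells. Neb, the giant ruler of the thin filament, averaged 602 CPM in early cells and 2084 CPM in late myocytes, and the capping and nucleating proteins Lmod2 and Lmod3 were 13.7-fold and 23.7-fold higher.

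Among 26 genes of the Z-disc, the M-band and titin, 23 were at least 2-fold higher in every library (21 in Myog-high cells), with a median log2 ratio of 4.07 (3.57 in Myog-high cells). Ttn, the giant spring that spans the sarcomere, was at 5287, 4944, 7266 and 5260 CPM, against an early mean of 1456 CPM. The largest ratios outside the selecting genes included Tcap, which caps titin at the Z-disc (median log2 ratio 7.24), Smpx (6.94), Myoz2 (6.82) and Myoz1 (6.64). Tcap and Myoz1 depended on which cells were taken. Tcap was at 102, 557, 834 and 151 CPM, and its ratio was 4.39 in Myog-high cells. Myoz1, a Z-disc protein of fast fibres, was at 51.3, 813, 578 and 174 CPM in late myocytes, but averaged 18.3 CPM in Myog-high cells, where its ratio was 2.81 and it was higher in 3 of 4 libraries. Myoz2, its relative of slow fibres, was at 213, 340, 243 and 229 CPM and had a ratio of 6.61 in Myog-high cells. Of 11 genes for sarcomere assembly and its quality control, 8 were at least 2-fold higher. Unc45b, the chaperone that folds myosin, averaged 30.4 CPM in early cells and 207 CPM in late myocytes, and Smyd1, a partner in myosin assembly, 20.4 and 89.3 CPM. The ubiquitin ligases Trim54 and Trim63 averaged 118 and 195 CPM, from 1.51 and 5.73 CPM.

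Genes of excitation-contraction coupling, which link the membrane signal to calcium release, were at least 2-fold higher in every library for 16 of 21. Cacna1s, the voltage sensor, was at 67.4, 64.9, 88.1 and 63.0 CPM against an early mean of 2.26 CPM. Casq2, which buffers calcium in the store, was at 322, 227, 302 and 253 CPM against 4.29 CPM. The release channel Ryr1 was 2.62-fold and the calcium pump Atp2a1 2.92-fold higher, from 64.4 and 214 CPM in early cells. Sln, a small inhibitor of the pump, was 35.2-fold higher, and Cav3, the caveolin of muscle, 22.6-fold. Pvalb, the calcium buffer of fast fibres, was at 17.4, 1662, 1103 and 375 CPM; in Myog-high cells it averaged 26.1 CPM and was higher in 3 of 4 libraries. Acetylcholine receptor genes differed less: 1 of 8 that reached 5 CPM, the fetal subunit Chrng (68.7 CPM early, 186 CPM late), was at least 2-fold higher in every library. Musk, the receptor kinase of the synapse, averaged 35.0 CPM in early cells and 32.7 CPM in late myocytes and went both ways between libraries. In the dystrophin complex, which ties the sarcomere to the membrane, Dmd was 5.25-fold higher on that scale (9.84 and 55.9 CPM), whereas Dag1, its dystroglycan, was lower in every library (835 and 289 CPM).

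In energy metabolism, the isoforms particular to muscle were counted apart from the general ones. At least 2-fold higher levels in every library were found for 12 of 13 muscle isoforms and for 0 of 10 ubiquitous isoforms that reached 5 CPM. Ckm, muscle creatine kinase, was at 1229, 5060, 4004 and 1598 CPM, against an early mean of 35.9 CPM, and averaged 973 CPM in Myog-high cells. Pgam2, the muscle phosphoglycerate mutase, averaged 14.7 CPM in early cells and 819 CPM in late myocytes, whereas the general isoform Pgam1 averaged 151 and 72.7 CPM. Cox6a2, the muscle form of a cytochrome oxidase subunit, was 41.4-fold higher, and its general form Cox6a1 was at 0.929 of the early level. Fabp3, a fatty acid carrier, was at 86.0, 578, 334 and 188 CPM against 3.12 CPM. In Myog-high cells 11 of the 13 muscle isoforms were at least 2-fold higher in every library. Pgam2, Cox6a2 and Fabp3 averaged 341, 391 and 82.8 CPM in those cells.

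Myog itself was little different between the 2 stages of commitment. It was at 4107, 2303, 2527 and 4233 CPM in late myocytes, against 2877, 2859, 2410 and 3487 CPM in early cells, so it was higher in 3 of 4 libraries. In Myog-high cells, which were themselves taken by their Myog level, the median log2 ratio was 0.46. Mef2c, a partner of the myogenic factors, was at 855, 1142, 1049 and 686 CPM against 31.2, 15.7, 64.8 and 18.2 CPM in early cells, with no overlap. Myod1 averaged 329 CPM, 1.66-fold higher. The earlier regulators were lower in every library, with Pax7 at 7.85 CPM (37.9 CPM early) and Myf5 at 19.6 CPM (67.8 CPM early). Of 12 myogenic regulators that reached 5 CPM, 2 (Mef2c and Myf6) were at least 2-fold higher in every library and 2 (Pax7 and Myf5) at least 2-fold lower, and their median log2 ratio was 0.12. In Myog-high cells 1 regulator was at least 2-fold higher in every library and 1 at least 2-fold lower. Myf6 was at 5.33, 20.2, 1.42 and 0 CPM in the Myog-high cells of the 4 libraries. It was at 119, 337, 311 and 358 CPM in the 28 Myog-low cells with sums of at least 700. The fusion proteins Mymk and Mymx, which merge the membranes of myocytes, averaged 1101 and 910 CPM in late myocytes and 332 and 430 CPM in early cells. Mymk was at least 2-fold higher in every library, together with Tmem182 and Dysf, a membrane repair protein, whereas the adhesion protein Cdh15 was lower (244 CPM early, 91.4 CPM late).

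Of the 2 main inhibitors of cell cycle kinases, Cdkn1a was higher in late myocytes and the level of Cdkn1c depended on the cells taken. Cdkn1a (p21) was at 1625, 1159, 1214 and 1713 CPM in late myocytes against an early mean of 334 CPM, with no overlap. Cdkn1c (p57) was at 7653, 4802, 3422 and 6059 CPM against an early mean of 6882 CPM, and it was lower in 3 of 4 libraries. Cell cycle genes summed to between 144 and 181 CPM, against at least 1587 CPM in Pax7+ cells; the early cells were limited by their cell cycle UMIs, so they are no reference here. Of 20 progenitor surface and matrix genes that reached 5 CPM, 10 were at least 2-fold lower in every library and 0 higher, with a median log2 ratio of -1.80. The largest deficit was in Spp1, the secreted osteopontin, at 52.1, 76.0, 20.1 and 13.9 CPM against an early mean of 761 CPM. Vim, an intermediate filament that desmin replaces in muscle, averaged 2935 CPM in early cells and 1201 CPM in late myocytes, and Des averaged 836 and 2786 CPM. Other genes with the smallest ratios were Ncald, Sox8, the imprinted Mest (961 CPM early against at most 147 CPM in any late sum), Edil3, Col6a3, Rgs5, Sulf1, Mgp and Ramp2.

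**Figure D2:**
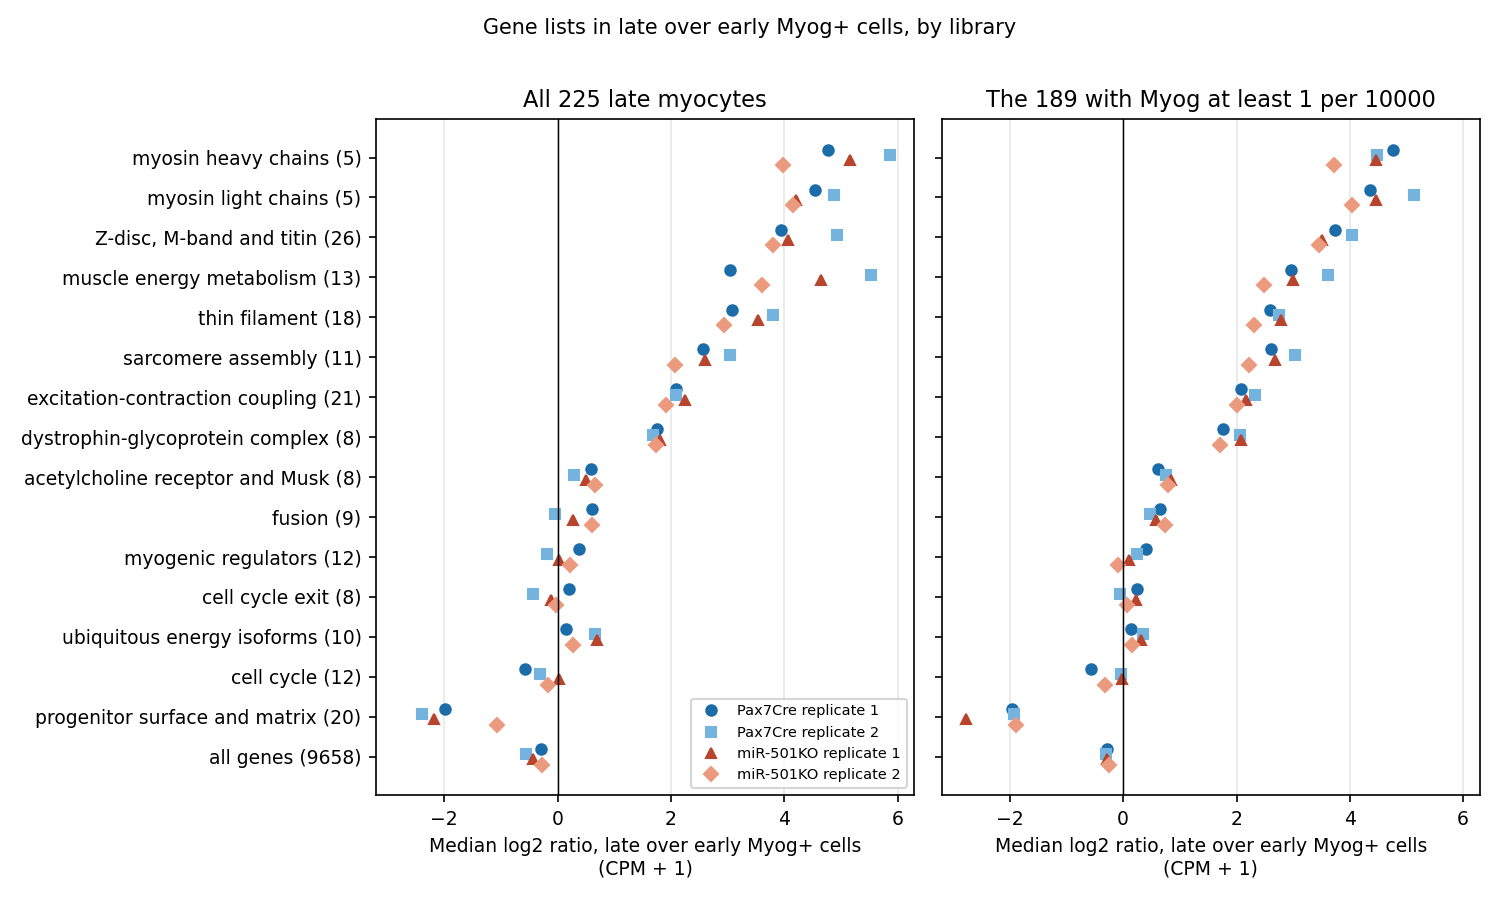
Median log2 ratio of late over early Myog+ cells (x axis, CPM + 1) for each gene list (y axis, number of genes at 5 CPM in parentheses), with 1 point per library, for all 225 late myocytes (left) and the 189 Myog-high cells (right). Sarcomere and muscle energy lists lie to the right of 0 in every library, the progenitor list lies to the left, and the median of all genes lies just left of 0. The myosin, thin filament and Z-disc lists include selecting genes.

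By level, the 15 most abundant genes in late myocytes were Acta1, Mylpf, Myl1, Tmsb10, Tpt1, Tpm1, Tnnc2, mt-Co3, Tpm2, Tnnt3, Rpl41, mt-Atp6, Actc1, Eef1a1 and Ttn. Acta1 was at 15004, 28685, 23171 and 14914 CPM, highest in the 2 libraries with the most Myog-low RNA. The remaining genes with the largest ratios outside the rule were Itgb1bp2 (melusin), Tceal7, the small heat shock protein Hspb7, Adprhl1 and Myot (myotilin of the Z-disc), with median log2 ratios of 6.58, 6.49, 5.78, 5.77 and 5.62. In Myog-high cells these ratios were 6.50, 4.73, 4.35, 5.44 and 3.66.

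Late myocytes varied along the sum that chose them. They were divided at sums of 200, 400 and 800 per 10000 UMIs into 71, 81, 48 and 25 cells, and all 25 cells over 800 were Myog-low. Myog was at 5223, 3969, 2302 and 21.6 CPM from the lowest to the highest bin, and Cdkn1c at 8829, 6824, 3969 and 184 CPM. Both were thus lower in each higher bin of pooled cells. Within Myog-high cells the Spearman correlation of Myog with the sum was -0.68, -0.76, -0.50 and -0.69 in the 4 libraries (88, 24, 45 and 32 cells), and that of Cdkn1c was -0.52, -0.49, -0.55 and -0.50. Cells of a library share their depth and the selecting genes take part of each total, so these are descriptions. Mymk had no such relation, with correlations from 0.003 to 0.097.

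Isoforms took 2 different patterns over the bins, and the 25 cells of the highest bin were of another kind, all of them Myog-low. The developmental Myl4 was at 1717, 4344, 7708 and 1994 CPM, and Tnnc1 at 242, 1114, 2355 and 204 CPM, so both peaked at sums of 400 to 800. Myh3 (1136, 2940, 4038 and 85.4 CPM) and Myh8 (34.0, 344, 1290 and 54.4 CPM) did the same, although both are in the sum. The fast and adult genes Tnnt3 (1408, 2855, 4908 and 26445 CPM) and Ckm (574, 929, 1681 and 14009 CPM) were higher in each bin. Tnnt3 correlated with the sum within Myog-high cells at 0.80, 0.77, 0.72 and 0.88, and Myl4 at 0.80, 0.83, 0.86 and 0.76. Both thus rose with the sum in those cells. Tnnt2, already high in early cells, was level over the 3 lower bins (4217, 4488 and 3890 CPM) and at 220 CPM in the highest. Ttn had 4318, 6988, 8058 and 463 CPM, and Cdkn1a 1540, 1898, 1491 and 33.3 CPM.

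**Figure D3:**
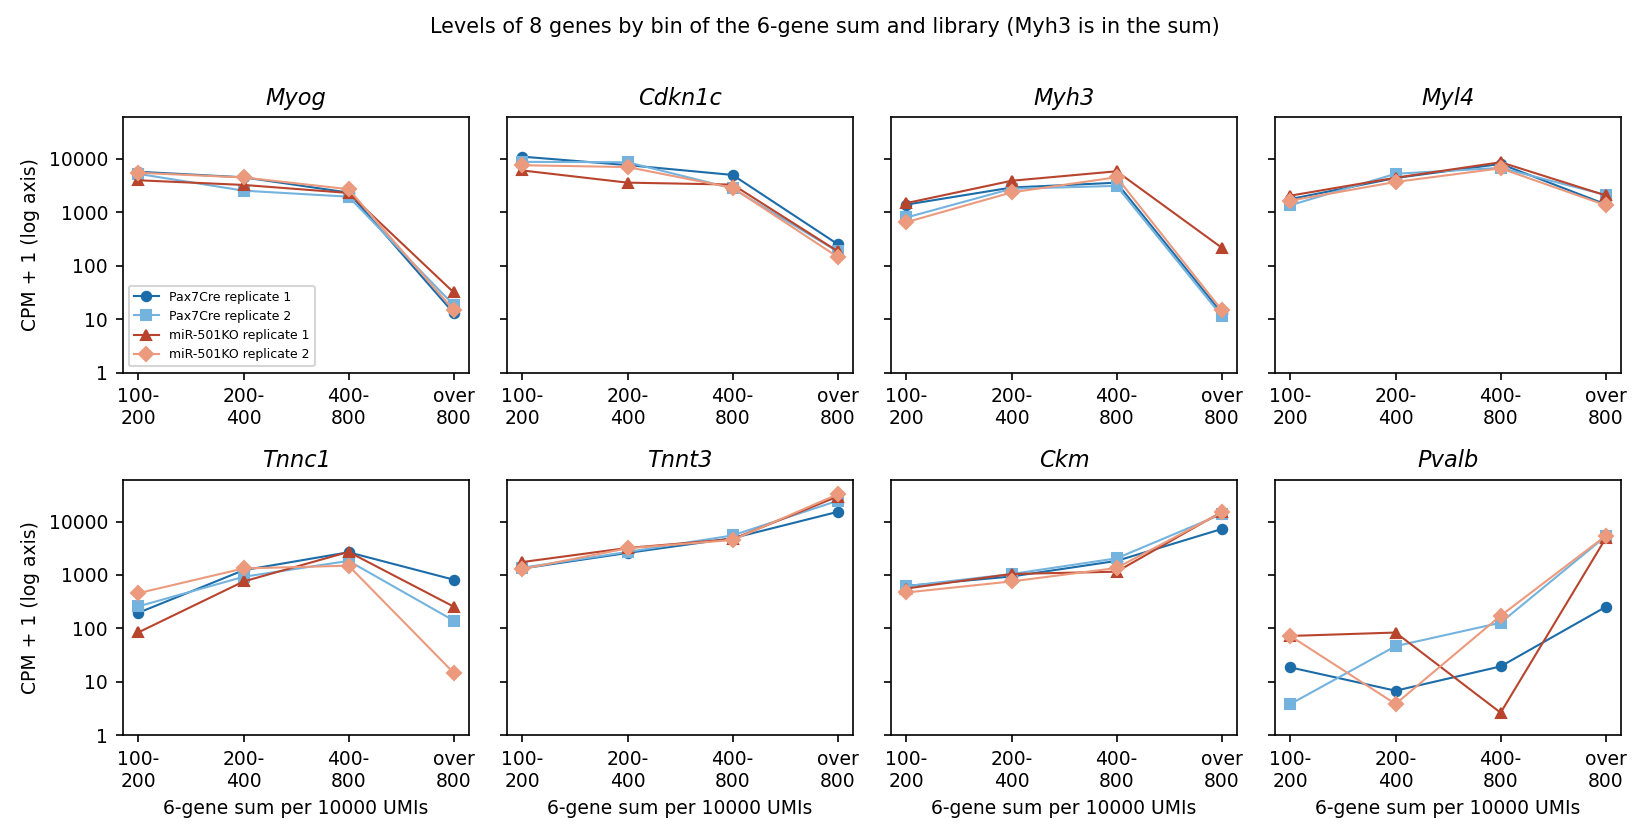
Levels of 8 genes (y axis, CPM + 1, log scale) in late myocytes grouped by the sum over the 6 selecting genes (x axis, per 10000 UMIs), with 1 line per library. Myog and Cdkn1c are lower in each higher bin of pooled cells, Myh3, Myl4 and Tnnc1 are highest at 400 to 800 in the pooled cells, and Tnnt3 and Ckm are highest over 800. All 25 cells over 800 are Myog-low.

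The genes whose levels over the 16 combinations of bin and library were most like the sum were, among 4630 genes, Tpm2 (Spearman rho 0.974), Ckm and Chchd1 (0.971 each), Tpi1 and Myot (0.965 each), Apobec2 (0.962), and Ak1 and Tpm1 (0.959 each). The 16 values come from 4 libraries and share cells of the same depth, and those of the highest bin come from Myog-low cells alone. Most opposite were Hmgn1 (-0.988), Rbbp7 (-0.979) and Hnrnpd (-0.971).

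The 28 Myog-low cells with sums of at least 700 held RNA of mature fast fibres. Myog was at 14.9, 17.3, 30.4 and 13.8 CPM in them by library, against 4220, 3328, 3378 and 4734 CPM in Myog-high cells. Pvalb was at 157, 5264, 4810 and 5389 CPM against 13.5, 47.0, 7.08 and 36.6 CPM, so Pax7Cre replicate 1, with 3 such cells, was low among the 4 but still above every Myog-high value. Hspb6, a small heat shock protein, averaged 1414 CPM against 6.17 CPM, and Eef1a2, the elongation factor isoform of muscle and neurons, 454 against 4.35 CPM. Myf6, the myogenic factor of mature fibres, averaged 281 CPM against 6.72 CPM, and Cox7a1 1458 against 22.8 CPM. Myh3 averaged 163 CPM against 2724 CPM, Mymk 26.4 against 1322 CPM, and Sox11, a factor of immature cells, 0.288 against 580 CPM. Ttn, at 375 CPM, was also far below its 6952 CPM in Myog-high cells, while Acta1 averaged 58247 against 13083 CPM. The low share of mitochondrial UMIs given above moved with all these differences, and its part was not tested.

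The first genotype question was whether miR-501KO muscle held fewer late myocytes. They were 2.95% of passing cells in Pax7Cre replicate 1 (95% Wilson interval 2.41 to 3.61) and 2.20% in replicate 2 (1.61 to 3.00). In miR-501KO they were 2.02% in replicate 1 (1.56 to 2.62) and 1.98% in replicate 2 (1.46 to 2.67). Both miR-501KO values lay below both Pax7Cre values, but without clusters that came almost wholly from 1 library, miR-501KO replicate 1 had 2.86% (55 of 1923 cells), above Pax7Cre replicate 2. The intervals cover counting error only. The means were 2.57 ± 0.53% and 2.0 ± 0.031% (SD, n = 2 each), a difference of -0.57 percentage points (-0.93 in run 1 and -0.22 in run 2), with an exact permutation p of 0.33, two-sided, the smallest the design allows. Without those clusters it was -0.14 points, and without barcodes with 2 or more macrophage UMIs it was -0.23 points (exact permutation p = 0.667 for each). With the threshold at 50 per 10000 the difference had the opposite sign (0.56 points, exact permutation p = 0.667). Among Myog-high cells it was -0.52 points (exact permutation p = 1.0), with run 2 at 0.15 points.

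All passing cells include other cell types of the sort, so the share was also taken among Cd74-free cells with a Myog UMI. It was 5.45% (90 of 1652 cells) and 4.12% (31 of 753) in Pax7Cre, and 5.78% (49 of 848) and 4.49% (36 of 802) in miR-501KO. Here the 2 groups overlapped, and the difference was 0.35 points (means 4.78 ± 0.94% and 5.13 ± 0.91%, SD, n = 2 each; exact two-sided permutation p = 0.667). With the threshold at 50 per 10000 the shares were 6.90% and 4.52% in Pax7Cre and 11.6% and 7.36% in miR-501KO, with no overlap and a difference of 3.75 points (exact permutation p = 0.33, the smallest possible). With cells of at least 2000 UMIs the difference was 1.12 points, and thinned to 5000 UMIs per cell it was -0.16 points. With 2 libraries per genotype, no difference in the share of late myocytes passed a test, and its size and sign depended on the limits set.

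**Figure D4:**
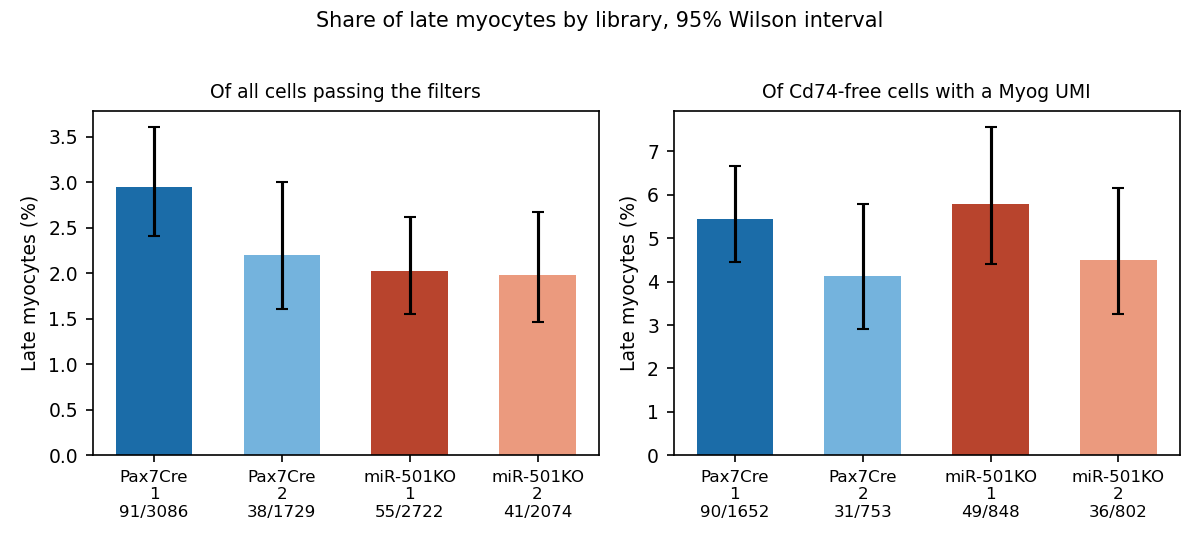
Late myocytes as a percentage (y axis, from 0) of all passing cells (left) and of Cd74-free cells with a Myog UMI (right), with 1 bar per library, the counts under each bar, and 95% Wilson intervals for counting error. The left panel runs from 1.98% to 2.95% and the right from 4.12% to 5.78%, and the intervals of neighbouring bars overlap.

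The second question was which genes differed by genotype within late myocytes. UMIs were summed per library and 9373 genes were tested with edgeR's quasi-likelihood test, adjusted by Benjamini-Hochberg over all of them. No gene passed an adjusted p of 0.05 (0% of the genes tested); 206 had p under 0.05 before adjustment. The other tool, DESeq2, called 2 genes, Gal and Spp1, both lower in miR-501KO. In the 189 Myog-high cells alone, a comparison added after the data were seen, edgeR called 1 gene, Gal, lower in miR-501KO (adjusted p = 0.00868). With the run as a block, edgeR called 0 genes in all late myocytes and 11 in Myog-high cells, 2 higher (Fgf21 and Cck) and 9 lower, Gal, Spp1 and Timp1 among them.

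In all late myocytes none of the sarcomere lists held a called gene; with the run as a block in Myog-high cells, Myh4 was called lower. The selecting genes are given as a description: Myh3 had a log2 difference, miR-501KO minus Pax7Cre, of 0.18 ± 0.32 (SE), and Acta1 of -0.32 ± 0.44. The others lay between -0.37 (Mybph) and -0.28 (Mylpf), so 5 of 6 were lower. Over all 9373 genes, 5008 were lower and the median log2 difference was -0.02. Of the other lists, muscle energy metabolism had 12 of 13 genes lower, with a median log2 difference of -0.31. The 18 thin filament genes had 13 lower (median -0.15), and the 26 genes of the Z-disc, M-band and titin 17 lower (median -0.14). The 28 Myog-low cells held more RNA of some of these genes than Myog-high cells (Ckm at 12110 against 973 CPM). They held less of others (Neb at 375 against 2483 CPM and Ttn at 375 against 6952 CPM). These 28 cells gave 31.0% of the UMIs of Pax7Cre replicate 2 and 22.0% of those of miR-501KO replicate 1. In the other Pax7Cre and miR-501KO libraries they gave 2.67% and 5.94%. Their part in these medians was not tested. Of all 8786 genes tested in Myog-high cells, 4366 were lower. In these cells the thin filament had a median of -0.05 (11 of 18 lower), the Z-disc list -0.0087 (13 of 25 lower) and muscle energy metabolism -0.16 (9 of 12 lower). With the run as a block, in all late myocytes, the medians were -0.0019, -0.089 and -0.11.

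The 3 genes of smallest unadjusted p that were lower in both runs were Timp1, Gal and Spp1, all secreted proteins, and none passed the edgeR test in all late myocytes (adjusted p = 1.0 for each). Timp1, an inhibitor of matrix proteases, was at 73.6 and 70.3 CPM in Pax7Cre and at 29.9 and 29.5 CPM in miR-501KO, with no overlap. Its log2 difference was -1.37 ± 0.19 (SE; adjusted p = 0.074 in Myog-high cells). Gal, the neuropeptide galanin, was at 258 and 125 CPM in Pax7Cre and at 14.4 and 32.3 CPM in miR-501KO, a log2 difference of -3.12 ± 0.45. In Myog-high cells with sums of 100 to 200, Gal was at 483 and 495 against 7.43 and 37.0 CPM. At 200 to 400 it was at 283 and 0 against 34.4 and 33.4 CPM. At 400 to 800 it was at 31.6 and 3.33 against 6.65 and 4.65 CPM. Single cells weighed heavily: 50.9% and 59.0% of the Gal UMIs of the Pax7Cre libraries came from 1 cell each, and 61.0% and 24.1% of those of the miR-501KO libraries. Spp1 was at 52.1 and 76.0 CPM against 20.1 and 13.9 CPM, a log2 difference of -2.00 ± 0.32, with 59.4% and 73.7% of its Pax7Cre UMIs in 1 cell each. The part of single cells in the calls was not tested. Just below the threshold, in 33, 7, 65 and 31 cells with sums of 40 to 100, the order was another. Spp1 was at 61.7 and 39.5 CPM in Pax7Cre and at 209 and 143 CPM in miR-501KO. Timp1 was at 51.9 and 183 against 125 and 86.0 CPM, and Gal at 56.8 and 1625 against 144 and 784 CPM. There Spp1 was higher in miR-501KO in both runs, and Timp1 and Gal in run 1 only.

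The 3 genes of smallest p that were higher in miR-501KO in both runs were Ifit3, Id3 and Cenpa, and none passed the edgeR test either (adjusted p = 1.0 for each). Ifit3, an interferon-induced gene, had no UMI in the Pax7Cre libraries, where a count of 0 allows up to 3 UMIs per library, and 17 and 10 UMIs in miR-501KO, most of them in 1 cell of each library (70.6% in replicate 1). Id3, an inhibitor of the myogenic factors, was at 37.7 and 32.1 CPM in Pax7Cre and at 72.9 and 117 CPM in miR-501KO, a log2 difference of 1.34 ± 0.26. In Myog-high cells the difference of Id3 was 0.64. The 7 Myog-low cells with sums under 200, all of them in miR-501KO, held Id3 at 1180 CPM against 47.1 CPM in Myog-high cells. Cenpa, a histone of the centromere, was at 3.99 and 2.50 CPM in Pax7Cre and 14.4 and 11.1 CPM in miR-501KO, with 63.4% and 44.4% of the miR-501KO UMIs in 1 cell each.

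The third question was whether the genotype difference in late myocytes was another than that in early Myog+ cells, tested as the genotype by state term in a fit of the 8 sums, blocked by library. Of 11612 genes, edgeR called none (0% of the genes tested) and 301 had p under 0.05 before adjustment, while DESeq2 called 3 (Ctrb1, Tnnc1 and Gal). The smallest p was that of Tnnc1 (3.79e-05, adjusted p = 0.441 in edgeR), with an interaction of -2.01 ± 0.23 on the log2 scale. Its late levels, given above, overlapped between genotypes, whereas in early cells it was at 6.24 and 3.03 CPM in Pax7Cre and at 18.1 and 14.6 CPM in miR-501KO. Of the early miR-501KO UMIs, 32.4% and 57.1% were in 1 cell each. In Myog-high cells Tnnc1 passed in edgeR (adjusted p = 0.0121), as did Gal (0.0121) and R3hdml (0.0445). R3hdml was at 162 and 143 CPM in Pax7Cre and at 84.5 and 118 CPM in miR-501KO late myocytes, and at 74.4 and 78.4 against 110 and 122 CPM in early cells, so the genotypes stood in opposite order in the 2 states. Over all 11612 genes the interaction was negative for 6046. By list it was negative for 15 of 18 thin filament, 22 of 26 Z-disc, 11 of 11 sarcomere assembly and 7 of 21 progenitor genes. In Myog-high cells these counts were 14 of 18, 20 of 25, 7 of 10 and 17 of 21, against 6042 of all 11553 genes. The thin filament and Z-disc lists hold selecting genes, and no list was tested as a set.

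Among genes with a positive interaction, Fgf21, a stress hormone, was at 13.2 and 21.8 CPM in Pax7Cre late myocytes and at 46.1 and 158 CPM in miR-501KO, against 3.39, 3.03, 2.48 and 3.75 CPM in early cells. Its interaction was 2.52 ± 0.49 and did not pass in edgeR (adjusted p = 1.0). Cenpa (2.37 ± 0.40) and Nppc (5.0 ± 0.75) did not pass either (adjusted p = 1.0 for each in edgeR), and Nppc rested on 23 and 10 late UMIs in the miR-501KO libraries, with 0 in their Myog-high cells.

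**Figure D5:**
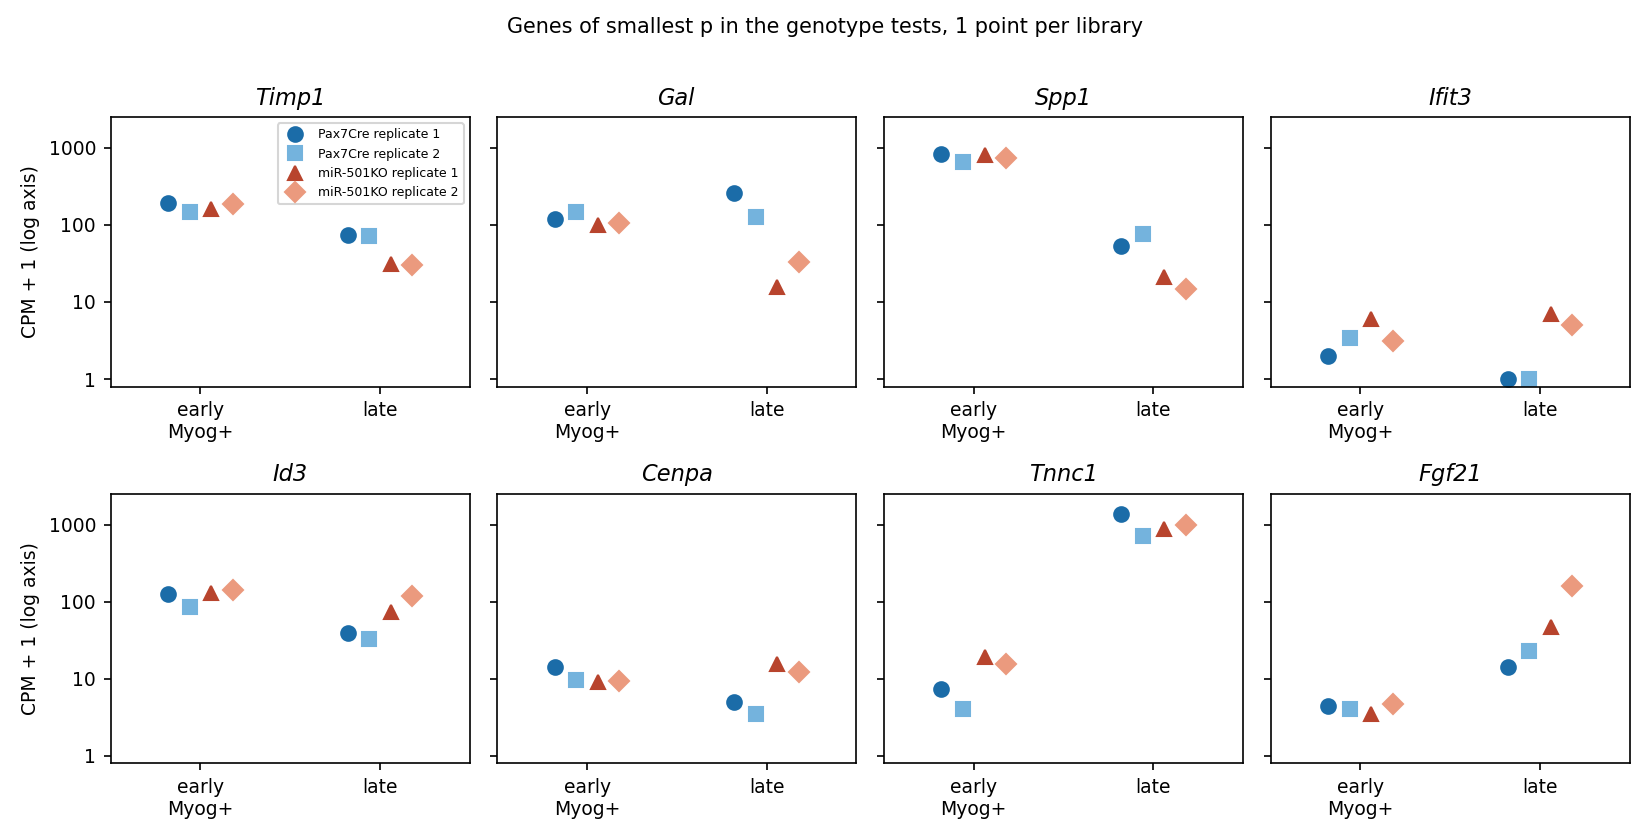
Levels (y axis, CPM + 1, log scale) of 8 genes of smallest p in the genotype tests, in early Myog+ cells and late myocytes, with 1 point per library. In late myocytes Timp1, Gal and Spp1 lie lower in both miR-501KO libraries, Id3, Cenpa, Fgf21 and Ifit3 lie higher, and Tnnc1 separates by genotype in the early cells.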

How the data were processed

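Each of the 4 libraries (2 Pax7Cre, 2 miR-501KO, 3 pooled mice each) was used as a replicate. The authors prepared droplet libraries (10x Genomics, 3' ends) and deposited raw UMI counts per gene and barcode, with no normalization. Per the file headers the counts came from Cell Ranger 6.0.2, and the submitters' processing notes name Cell Ranger, Seurat and GRCm39; all 25827 genes were read by identifier, with 22 symbols used by more than 1 gene. The depth of late myocytes was between 2442501 and 5011431 UMIs per library; the 95% Wilson intervals express only the error of counting.

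Late myocytes, early Myog+ cells and Pax7+ cells (a Pax7 UMI, no Myog or Cd74 UMI, sum under 100 per 10000) were gated with Python 3.11.15, and cells were clustered in scanpy 1.11.5 (Leiden resolution 0.5) as a check only. Macrophages for the background were cells with at least 10 UMIs over C1qa, C1qb, C1qc and Csf1r and no Myog UMI. UMIs were summed per library and scaled to 1000000 (CPM). Late against early levels are log2 ratios with 1 CPM added, without a test. Genotype was tested on the sums in edgeR 4.0.16 (filterByExpr, TMM, quasi-likelihood test, no block) under R 4.3.3 with limma 3.58.1, at an adjusted p of 0.05, and shares by an exact permutation test in scipy 1.17.1. DESeq2 1.42.0 was an alternative. The scripts were tested on simulated data. No doublet caller was run.

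The members, gene lists and tests were chosen with earlier results of these data known. The genes named are those of the lists by level or ratio, the 15 of highest level, the 15 largest and 10 smallest ratios among genes of at least 20 CPM outside the rule with 1 sign in 4 of 4 libraries, the 8 most like the sum, and the 3 per direction of smallest p with the same sign in both runs. Genes picked to describe the Myog-low cells, and Mylpf, Ctrb1 and the genes called in alternatives alone, were chosen after their values were seen. Kirrel1 and Aldoa of the lists were not matched in the files.

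Replicates of a genotype were distinct libraries, with a chi-square over its degrees of freedom of 39.3 in Pax7Cre and 12.8 in miR-501KO. The labels give run numbers; the run 1 minus run 2 difference correlated between genotypes at -0.306 over 9373 genes and at -0.002 in Myog-high cells (8786 genes).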

Additional observations from a re-analysis of the deposited data

How the results depend on the processing

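The limits of these results are few members in Pax7Cre replicate 2 and the miR-501KO libraries, 2 libraries per genotype, and the 28 Myog-low cells, of which Pax7Cre replicate 2 held 14. The limits to Myog-high cells and to sums under 800 per 10000, the block in Myog-high cells and the crossed pairs were added after the data were seen.

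The difference in the share of late myocytes (-0.57 points) ran from -0.93 to -0.22 with a replicate left out and kept its sign in the other alternatives, except at a threshold of 50 per 10000 (0.56 points). It was -0.14 points without single-library clusters and -0.23 points without barcodes with macrophage UMIs. That among Myog+ cells (0.35 points) ran from 0.33 to 0.37 with a replicate left out, was negative when cells were thinned to 5000 UMIs (-0.16 points), and reached 0.88 points without single-library clusters, 1.12 points at 2000 UMIs and 3.75 points at 50 per 10000. The causes were not tested.

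Genes at least 2-fold higher in late myocytes (433) numbered between 458 and 481 and those 2-fold lower (718) between 763 and 1056 with a library left out, fewer libraries then having to pass. With 5 CPM added, 324 were higher and 385 lower, and with no limit on cell cycle UMIs in early cells, 487 and 1168. Over the named genes, the ratio moved by more than the spread between libraries in 8 comparisons and by less in 117.

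No gene differed by genotype in edgeR under RLE size factors, thresholds of 50 or 200 per 10000, without barcodes with macrophage UMIs, without single-library clusters, or with any library left out (0 genes, with 140 to 458 at an unadjusted p under 0.05, the lone library of a genotype being assumed to vary like the other group). The counts were 2 with DESeq2, 51 with no filter on low counts (38 higher in miR-501KO), 1 in Myog-high cells and 1 with sums under 800. The run as a replicate block, where the numbers pair the libraries only by run, called 0 genes in all late myocytes (118 at an unadjusted p under 0.05). In Myog-high cells the replicate block called 11 genes, 2 higher in miR-501KO (Fgf21 and Cck) and 9 lower (Gal, Islr, Col1a1, Timp1, Col4a1, Spp1, Myh4, Postn and Mgp). Crossed pairs called 6 genes.

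The interaction called 3 genes with DESeq2, 19 with no filter, 3 in Myog-high cells and 4 with sums under 800 (those 3 and Mylpf), and 0 in the other alternatives run, each library left out included. Nppc had the opposite sign in Myog-high cells (-3.46), where its miR-501KO UMIs were 0. The cause of the other changes was not tested.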

Other observations

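Transcript length moved with the difference between the 28 Myog-low cells and the Myog-high cells. Over 5232 genes of at least 20 CPM in either kind (99.3% of those at that level), set by the longest protein-coding transcript in the mouse GENCODE annotation, the median log2 ratio of Myog-low over Myog-high levels was 0.074 for 442 genes with transcripts under 1000 bases. It was -0.51 for 1283 genes of 1000 to 2000 bases, -1.38 for 1889 genes of 2000 to 4000 bases, -2.18 for 1269 genes of 4000 to 8000 bases, and -2.65 for 349 genes of 8000 bases or more. Of the shortest class 51.1% of genes were higher in the Myog-low cells, and of the longest 6.02%. The Spearman correlation of length with the ratio was -0.425 across genes, which share the same cells and are not independent replicates. The giant Ttn and Macf1 were among the low genes, at 375 and 4.07 CPM against 6952 and 1141 CPM, while Mylpf, a short transcript, was at 73000 against 9572 CPM. The part of length or RNA quality in these levels was not tested.

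Esrrg, which encodes an estrogen-related receptor, was near the limit of detection in late myocytes. It had 8 and 3 UMIs in Pax7Cre replicates 1 and 2 and 9 and 3 UMIs in miR-501KO, or 1.60, 1.07, 3.17 and 1.23 CPM, with overlap between genotypes. In early Myog+ cells it had between 1 and 3 UMIs per library.

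The 7 Myog-low cells with sums under 200 lay near Pax7+ cells in 2 progenitor genes. Pooled, they held Pax7 at 173 CPM and Vim at 3427 CPM, against 4.95 and 1360 CPM in Myog-high cells and 150 and 4591 CPM in Pax7+ cells. They also held Pvalb at 558 CPM, against 22.7 and 8.71 CPM.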
